A study of Mus musculus with 12 samples.

Results

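The late cornified envelope genes Lce1a1, Lce1b, Lce1c, Lce1f, Lce1h, Lce1i, Lce1j, Lce1l, Lce1m and Lce6a were followed through mouse ear skin in which imiquimod treatment was combined with an agonist of the nuclear receptor LXR or PPARγ. They are 10 of the 55416 genes in the deposited tables, found by matching Ensembl identifiers to these symbols, and all 10 passed the filter on low counts that left 17130 genes for testing. The genes were picked from their estimated counts across the 4 groups with earlier results known. Their levels and differences are therefore given as a description, with no test, and tests were read only for other genes.

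Every library was made from ear skin of C57BL/6 mice aged 8 to 12 weeks and carries day 6 in its title, with 3 libraries in each of 4 groups. The UTX_Veh group has no imiquimod in its label, and the labels do not spell out what UTX stands for. The IMQ_Veh, IMQ_GW3965 and IMQ_Troglitazone groups received 20.8 mg of Aldara cream each day on the ears, at 5% imiquimod, an agonist of the receptor TLR7 that evokes a psoriasis-like inflammation. From day 3, IMQ_GW3965 also received daily intraperitoneal GW3965, an LXR agonist, at 20 mg/kg, and IMQ_Troglitazone received troglitazone, a PPARγ agonist, at 150 mg/kg. Veh in a group name stands for the DMSO vehicle of these drugs. Whether the 3 libraries of a group came from separate mice is not stated, so every p-value measures only the spread between these libraries, and part of it may be technical.

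Cells of the upper epidermis end their life as flat corneocytes, in which a crosslinked protein shell, the cornified envelope, replaces the plasma membrane. Transglutaminases first join involucrin, loricrin and small proline-rich proteins, and the small, glycine-, serine- and cysteine-rich LCE proteins are added late. The LCE genes sit in the epidermal differentiation complex. In general, LCE1 genes are expressed in normal skin, and LCE3 genes are induced in injured or inflamed skin. Separate functions of the single mouse Lce1 proteins are not assigned here.

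The 10 genes lie on chromosome 3 of the mouse build GRCm38, within the same cluster as the Lce3 genes. Lce6a is at one end (chr3:92620081-92621660, minus strand, 3 exons), and it is followed by the run of Lce1 genes from Lce1a1 (chr3:92646535-92648307) to Lce1k. Lce1l (chr3:92849949-92851286, minus strand) lies beyond Kprp, and Lce1m (chr3:93017810-93019060, minus strand) lies beyond the 6 Lce3 genes and Crct1, apart from all other Lce1 genes. Each Lce1 gene has 2 exons. Lce1c is the single member on the plus strand.

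The sequences around the gene starts show which members have alike promoters. RefSeq promoter windows on GRCm38.p6, 250 bases before and 50 bases after the annotated start, were matched by symbol for 9 of the 10 genes (all but Lce1f) and for 14 Lce1 and Lce6a genes in all. The windows of Lce1m, Lce1l and Lce6a, which resembled the others least, and of Lce1h and Lce1i, 81.0% identical to each other and taken as examples of the main run, are shown 5′ to 3′ along each gene. Capitals mark ATAAAAGG and AGGTCA on the gene's strand. All 5 are on the minus strand, at chr3:93019012-93019311 for Lce1m, chr3:92851237-92851536 for Lce1l, chr3:92765016-92765315 for Lce1h, chr3:92778850-92779149 for Lce1i and chr3:92621611-92621910 for Lce6a.
Lce1m: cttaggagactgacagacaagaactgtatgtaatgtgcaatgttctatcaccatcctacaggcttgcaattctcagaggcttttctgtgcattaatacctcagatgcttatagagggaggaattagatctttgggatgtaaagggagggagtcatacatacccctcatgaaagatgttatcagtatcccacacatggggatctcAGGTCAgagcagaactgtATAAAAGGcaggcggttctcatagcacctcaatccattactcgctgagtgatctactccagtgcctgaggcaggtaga
Lce1l: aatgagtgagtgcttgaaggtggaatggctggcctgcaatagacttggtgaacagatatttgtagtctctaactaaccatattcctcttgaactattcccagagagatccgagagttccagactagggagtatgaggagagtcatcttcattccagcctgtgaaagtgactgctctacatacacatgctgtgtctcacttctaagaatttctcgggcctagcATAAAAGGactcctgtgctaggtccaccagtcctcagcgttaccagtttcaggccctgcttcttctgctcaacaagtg
Lce1h: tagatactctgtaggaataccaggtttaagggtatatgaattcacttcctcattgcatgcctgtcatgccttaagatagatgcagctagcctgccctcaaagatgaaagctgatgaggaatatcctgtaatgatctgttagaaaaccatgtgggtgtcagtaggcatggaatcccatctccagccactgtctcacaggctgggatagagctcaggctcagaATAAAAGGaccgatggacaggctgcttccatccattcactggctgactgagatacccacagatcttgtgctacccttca
Lce1i: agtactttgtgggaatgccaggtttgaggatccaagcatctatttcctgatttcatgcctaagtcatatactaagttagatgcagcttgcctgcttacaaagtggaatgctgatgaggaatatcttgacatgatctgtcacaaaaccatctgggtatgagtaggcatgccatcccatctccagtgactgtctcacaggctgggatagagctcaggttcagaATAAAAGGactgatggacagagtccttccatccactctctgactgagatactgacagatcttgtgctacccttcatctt
Lce6a: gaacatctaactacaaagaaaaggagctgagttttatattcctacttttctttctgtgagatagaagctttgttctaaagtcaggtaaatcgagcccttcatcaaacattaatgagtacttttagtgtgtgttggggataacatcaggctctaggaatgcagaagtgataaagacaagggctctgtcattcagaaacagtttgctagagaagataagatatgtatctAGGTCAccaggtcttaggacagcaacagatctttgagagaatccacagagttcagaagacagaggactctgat

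The 8 letters ATAAAAGG, a form of the TATA element chosen for the search after these sequences had been seen, were present in 10 of the 14 windows on the gene's strand. The members among them were Lce1c, Lce1h, Lce1i, Lce1j, Lce1l and Lce1m. Its first base lay at position -29 from the start in Lce1c, Lce1h, Lce1i and Lce1j, and at -28 in Lce1l and Lce1m. Over both strands, 1.76% of the 32851 promoters of the table hold these letters. TATAAA, which overlaps ATAAAAGG in Lce1m, was present in 3 of the 14 windows, against 13.6% of all promoters. AGGTCA, the half-site bound by many nuclear receptors, was present on either strand in 5 of the 14 windows, against 16.3% of all promoters. Among the members it was found at -46 in Lce1m and at -23 in Lce6a on the gene's strand, and on the other strand in Lce1c. No window held a direct repeat of this half-site spaced by 1 base (0.0396% of all promoters) or by 4 bases (0.0152%), the AP-1 motif TGANTCA (7.81%) or the grainyhead motif AACCNGTT (2.09%). The motif AGATAA of GATA factors was present in 3 windows, against 11.2% of all promoters. Every motif was searched on both strands, and a match is a run of letters, not a bound site.

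In global alignments, the windows of the Lce1 genes from Lce1a1 to Lce1k mostly resembled one another, with median identities of 60.7% to 70.8% per gene. Single pairs fell to 54.1% (Lce1j with Lce1k), within the ranges of Lce1m and Lce1l below, and Lce1k reached 62.2% at most. The pair Lce1g and Lce1i reached 86.0%, and Lce1g and Lce1h reached 84.6%. The Lce1m window was 52.4% to 55.1% identical to the 11 matched windows of that run, and the Lce1l window 50.7% to 56.2%. For Lce6a the range was 49.3% to 54.6%. These 3 lay at the level of Lce1 against Lce3 windows, where 66 pairs ranged from 47.4% to 57.7%.

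**Figure D1:**
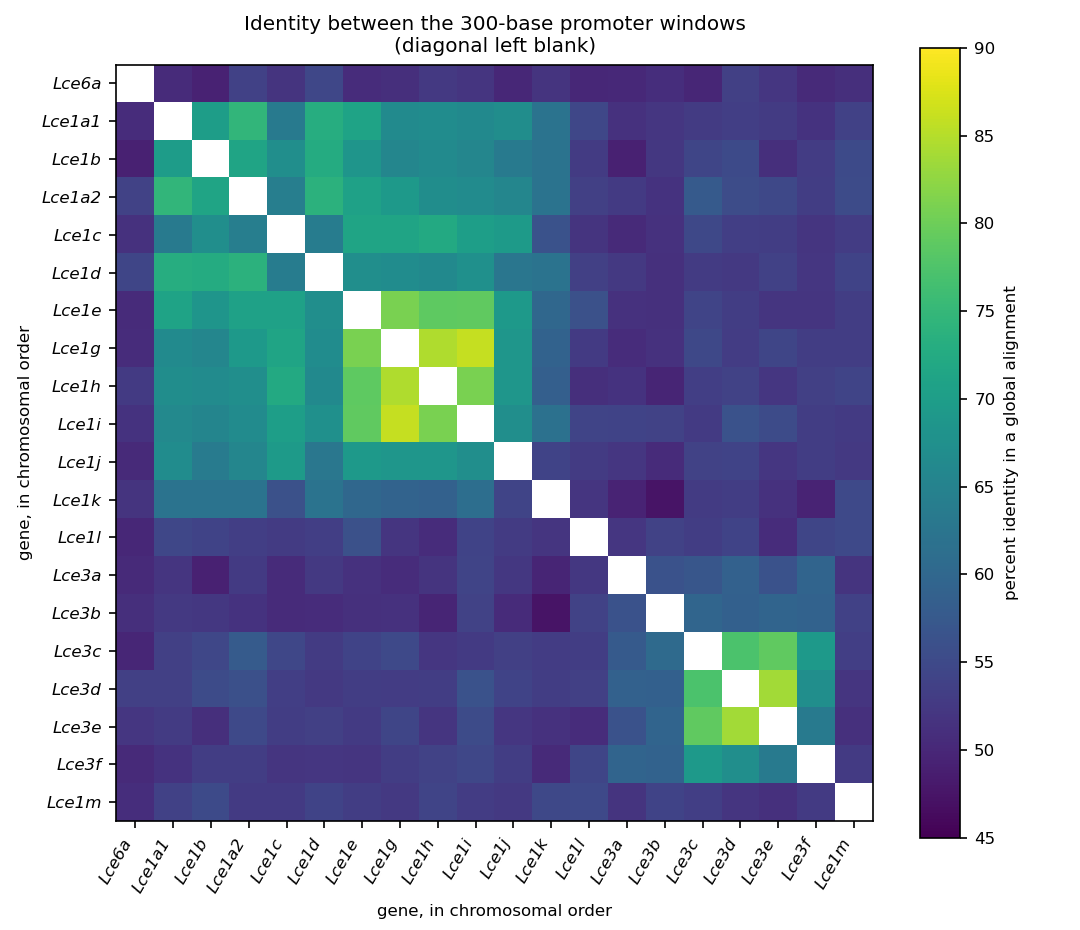
Percent identity in a global alignment between the 300-base promoter windows of 13 Lce1 genes, Lce6a and the 6 Lce3 genes. Genes are in chromosomal order on both axes, and colour stands for identity. The block of genes from Lce1a1 to Lce1k is mostly brighter than the rows of Lce6a, Lce1l and Lce1m, apart from some cells of Lce1k, and the brightest cell is Lce1g with Lce1i at 86.0%. Lce3c, Lce3d and Lce3e form another bright block, at 77.2% to 83.8%.

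The transcripts of most members share sequence, which bears on how their reads were assigned. Of all 50-base windows of a gene's GENCODE transcripts, 0.0% were shared with any other gene for Lce1m and Lce6a, and 9.7% for Lce1l. For the other 7 members 13.8% (Lce1f) to 27.1% (Lce1i) were shared, mostly with other Lce1 genes and with the predicted gene Gm38119 inside the cluster. RSEM divides such reads between genes: estimated counts were not whole in 7 to 12 of the 12 libraries for those 7 members, in 1 library for Lce1l and in 0 for Lce1m and Lce6a. Values of the 7 are thus less certain gene by gene than their sum. Antisense or overlapping transcripts could mix with them as well, since the strand setting of the counting is not given in the sources used here.

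Libraries held 18242074 to 25641602 estimated counts, and the sum of all 14 Lce1 genes made up 0.14% to 0.486% of them. Libraries stood apart in 2 ways: the feature ENSMUSG00000119584 took 11.624% of the counts of IMQ_GW3965 replicate 3, and muscle genes took 0.682% of IMQ_Veh replicate 3 against 0.168% and 0.184% in its fellow libraries. Levels are given in CPM, counts relative to library size after TMM scaling, which adjusts library sizes for differences in RNA composition, unless TPM is named. TPM are also corrected for transcript length and are used to compare genes with one another.

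In UTX_Veh skin, Lce1a1 had the highest level of the 10 per length, at 1167 ± 49.7 TPM (SD, n = 3), and Lce1m came next at 1057 ± 111 TPM. Their spreads overlapped. Lce1b followed at 891 ± 16.5 TPM, Lce1c at 784 ± 49.8 TPM and Lce1l at 598 ± 55.0 TPM. Lce1i (418 ± 21.2 TPM), Lce1f (373 ± 9.82 TPM), Lce1h (319 ± 14.1 TPM) and Lce1j (247 ± 6.71 TPM) formed the lower part of the Lce1 range, and Lce6a was lowest at 197 ± 6.18 TPM. The order differed in IMQ_Veh skin, where Lce1m was lowest of all at 77.3 ± 30.3 TPM and Lce1a1 still highest at 689 ± 166 TPM. There Lce1f (412 ± 114 TPM) stood above Lce1c (391 ± 104 TPM), though their spreads overlapped. Lce1a1 was highest with either drug too, at 1521 ± 220 TPM with GW3965 and 1396 ± 315 TPM with troglitazone, and Lce1m lowest, at 364 ± 141 and 317 ± 116 TPM. The spread of Lce1m overlapped that of Lce1j (420 ± 50.5 and 367 ± 62.8 TPM) in both drug groups.

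**Figure D2:**
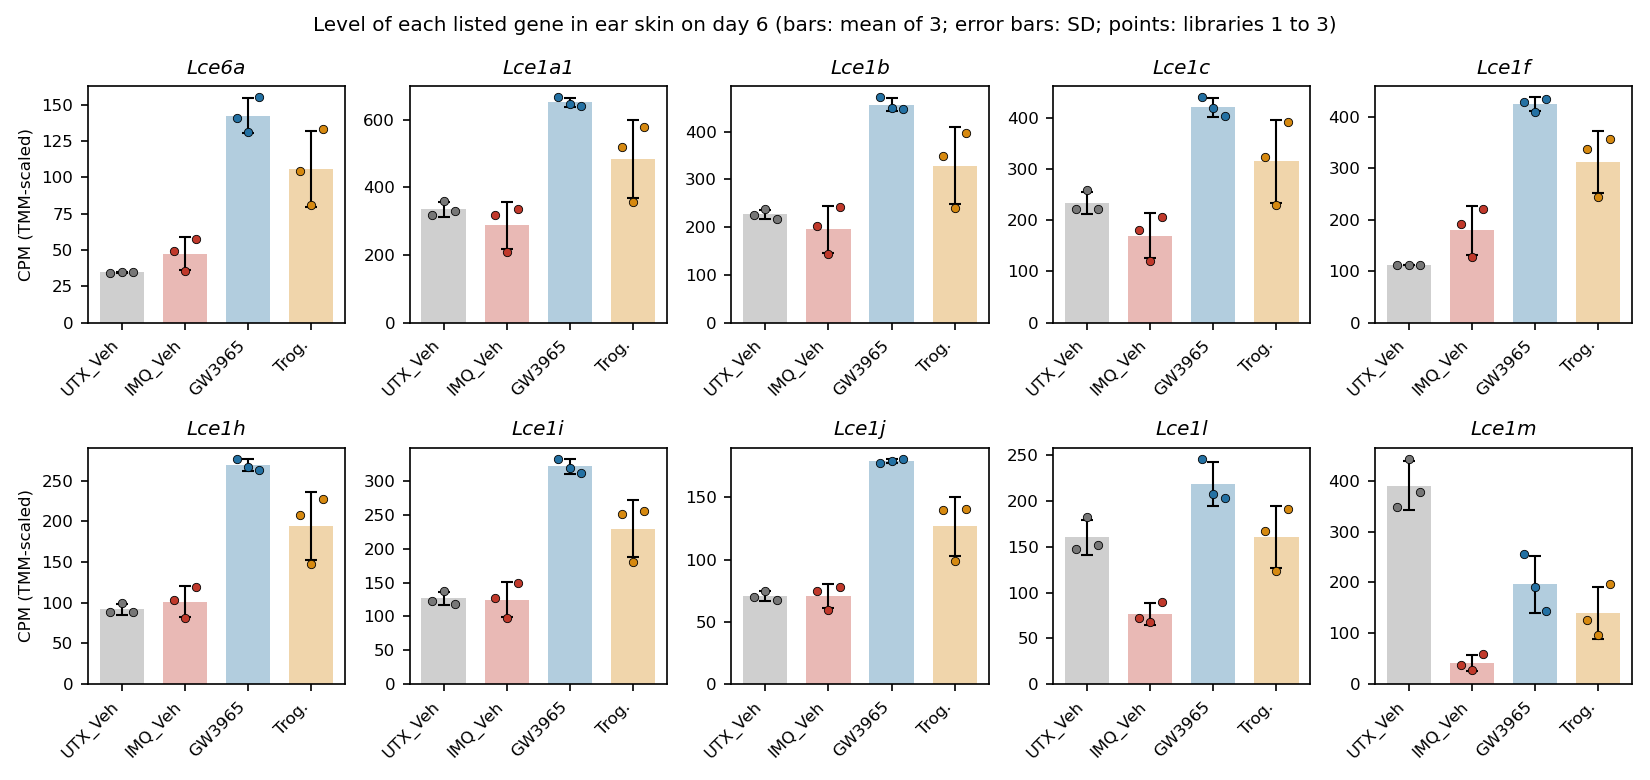
Level of each of the 10 genes in CPM (vertical axis from 0, scaled per panel) in the 4 groups. Bars are means of 3 libraries, error bars SDs and points single libraries. In every panel the 3 GW3965 points lie above the 3 IMQ_Veh points, and only Lce1m has its highest bar in UTX_Veh.

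Imiquimod skin against UTX_Veh showed no single direction for the 10 genes. Lce1m was 9.41-fold lower and Lce1l 2.10-fold lower in IMQ_Veh, Lce1f was 1.60-fold higher and Lce6a 1.38-fold higher, and the other 6 had log2 differences between -0.47 and 0.14. The median log2 difference of the 10 was -0.12, against 0.01 over all 17130 genes, and it was -0.01 without IMQ_Veh replicate 2 and -0.25 without IMQ_Veh replicate 3. By edgeR's adjusted p, 4 members were past the 0.05 threshold, as were 61.9% of all genes tested: 2 in the higher direction (33% of all genes) and 2 in the lower (28.9%). Since these libraries served to choose the genes, nothing is read from those counts. Libraries of the groups did not overlap in the higher direction for 2 members, against 34.7% of all genes, and in the lower direction for 3, against 32.1%.

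Lce1m stood at 349, 443 and 377 CPM in UTX_Veh libraries 1 to 3 and at 38.4, 27.8 and 58.3 CPM in IMQ_Veh. The groups were far apart, and each IMQ_Veh library was below every UTX_Veh library. Its log2 difference was -3.23 ± 0.33 (SE). Lce1l, the other gene outside the main run, had 147, 182 and 152 CPM in UTX_Veh against 72.0, 67.4 and 89.8 CPM in IMQ_Veh. These did not overlap either, with a log2 difference of -1.07 ± 0.16. These are the Lce1 members with the fewest shared 50-base windows, at 0.0% and 9.7%.

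Lce1f moved the other way, from 112 CPM in each UTX_Veh library to 191, 127 and 221 CPM in IMQ_Veh. All 3 IMQ_Veh values were above the UTX_Veh level, with the second closest to it, and the log2 difference was 0.68 ± 0.18. Lce6a, encoded at the far end of the cluster, had 34.1, 34.7 and 34.9 CPM in UTX_Veh against 49.1, 35.7 and 57.8 CPM in IMQ_Veh. The second IMQ_Veh library was barely above the UTX_Veh range, and the log2 difference was 0.46 ± 0.18.

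For the abundant Lce1a1, UTX_Veh libraries held 318, 360 and 329 CPM and IMQ_Veh libraries 320, 208 and 337 CPM, with a log2 difference of -0.22 ± 0.19. The ranges overlapped, and only the second IMQ_Veh library was clearly lower. Lce1b (-0.21 ± 0.19), Lce1h (0.14 ± 0.16), Lce1i (-0.02 ± 0.16) and Lce1j (0.00 ± 0.14) overlapped as well. Lce1c was lower in every IMQ_Veh library, at 180, 121 and 207 CPM against 221, 258 and 222 CPM, with a log2 difference of -0.47 ± 0.20.

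The direction of the genes near 0 depends on the scale. As a share of all counts, the 14 Lce1 genes together made up 0.267% to 0.299% in UTX_Veh and 0.14% to 0.225% in IMQ_Veh, which do not overlap. After TMM scaling, their sums were 2400 ± 180 and 1950 ± 459 CPM, with a log2 difference of -0.30 ± 0.19. In TPM, Lce6a was level (197 ± 6.18 against 196 ± 50.4 TPM), Lce1h was lower (319 ± 14.1 against 243 ± 49.8 TPM) and Lce1f was still higher in IMQ_Veh on average (373 ± 9.82 against 412 ± 114 TPM) with overlapping spreads. Upper-quartile scaling shifted the median of all genes to -0.114 in this comparison and that of the members to -0.24. Lce1m and Lce1l were lower in IMQ_Veh on each of these scales.

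Both drug groups had more Lce RNA than IMQ_Veh. With GW3965, all 10 genes had higher means, by log2 differences of 1.18 (Lce1a1) to 2.24 (Lce1m). With troglitazone the differences were 0.75 (Lce1a1 and Lce1b) to 1.75 (Lce1m). The median log2 difference of the 10 was 1.35 with GW3965, against -0.01 over all genes tested, and 0.89 with troglitazone, against -0.02. The drugs were compared with the same IMQ_Veh libraries, so these are not independent, and their doses differ. In whole ear skin, more cells of a type and more RNA per cell cannot be told apart.

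In GW3965 against IMQ_Veh, libraries did not overlap for all 10 members, where 12.7% of genes had all libraries higher, and 10 were past the edgeR threshold, all higher, where 6.59% of genes were (3.71% higher and 2.88% lower). In troglitazone against IMQ_Veh, 9 of 10 did not overlap, against 11.8% of genes, and 10 were past the threshold, all higher, against 9.34% of genes (4.69% higher and 4.65% lower). The one overlap was Lce1b, with 349, 240 and 398 CPM in troglitazone libraries and 202, 144 and 242 CPM in IMQ_Veh. Those comparisons were used in choosing the genes, and nothing is read from these counts. In the troglitazone comparison the number of members past the threshold was 4 without IMQ_Veh replicate 1, 6 without IMQ_Troglitazone replicate 1, 5 without its replicate 3 and 0 in a fit of only the 2 groups compared. Calls over all genes in these settings were, in order, 162 of 17521, 750 of 17546, 252 of 17538 and 0 of 16350. The main fit had 1600 of 17130.

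Lce1m had the largest fitted difference of the 10 for either drug and also the largest error. It reached 255, 190 and 143 CPM with GW3965, 4.73-fold above IMQ_Veh (log2 2.24 ± 0.32), and 126, 95.9 and 196 CPM with troglitazone, 3.36-fold above (1.75 ± 0.31). All 6 values were above the highest IMQ_Veh library and below the lowest UTX_Veh library. Against UTX_Veh the fitted level was still 1.99-fold lower with GW3965 (-0.99 ± 0.30) and 2.80-fold lower with troglitazone (-1.48 ± 0.30).

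Lce6a had 141, 131 and 155 CPM with GW3965 and 104, 80.9 and 133 CPM with troglitazone, 3.00-fold (log2 1.59 ± 0.19) and 2.23-fold (1.15 ± 0.18) above IMQ_Veh. It was above the IMQ_Veh and UTX_Veh libraries in all 6. Against UTX_Veh, Lce6a was 4.13-fold higher with GW3965 (2.05), the most of the 10. Lce1l had 246, 207 and 203 CPM with GW3965 and 167, 124 and 191 CPM with troglitazone. Its GW3965 libraries lay above all UTX_Veh libraries (147 to 182 CPM), and its troglitazone libraries spread around them, with a log2 difference from UTX_Veh of 0.00.

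On the CPM scale, the members of the main run had narrow ranges with GW3965. Lce1j had 178, 179 and 181 CPM, against 75.0, 59.6 and 78.1 CPM in IMQ_Veh (log2 1.34 ± 0.14), and Lce1a1 had 667, 647 and 642 CPM (1.18 ± 0.19). Lce1f had 430, 410 and 435 CPM (1.24 ± 0.18). The SDs of these 3 genes with GW3965 were 1.44, 12.8 and 13.2 CPM, smaller than in IMQ_Veh (9.95, 69.9 and 47.9 CPM). In TPM their SDs were not smaller, at 50.5, 220 and 114 TPM with GW3965 against 24.4, 166 and 114 TPM in IMQ_Veh. Lce1h had 277, 267 and 263 CPM (1.41 ± 0.16) and Lce1i 333, 320 and 312 CPM (1.37 ± 0.16), and Lce1b (1.22 ± 0.19) and Lce1c (1.31 ± 0.20) lay between the others.

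Troglitazone libraries were wider apart. Lce1j had 140, 99.2 and 141 CPM (0.84 ± 0.14), Lce1a1 520, 356 and 579 CPM (0.75 ± 0.19), Lce1f 337, 244 and 357 CPM (0.80 ± 0.18) and Lce1h 208, 148 and 227 CPM (0.94 ± 0.16). The second library was lowest in each. The log2 differences of Lce1i (0.88 ± 0.16), Lce1b (0.75 ± 0.19) and Lce1c (0.90 ± 0.20) were in the same range.

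The spread between libraries was shared by all members in IMQ_Veh and IMQ_Troglitazone, and less so in the other groups. In IMQ_Veh, replicate 2 was lowest and replicate 3 highest for all 10 genes, and in IMQ_Troglitazone replicate 2 was lowest and replicate 3 highest for all 10. In IMQ_GW3965, replicate 1 was highest for 7 and lowest for 1, and replicate 3 was lowest for 7 and highest for 3. In UTX_Veh, replicate 2 was highest for 8, and the lowest was replicate 1 for 6 and replicate 3 for 4. Over the 12 libraries, which share library and depth across genes, the log2 CPM of Lce1m correlated with that of Lce1l at r = 0.82, with those of the Lce1 members of the main run at -0.06 (Lce1f) to 0.57 (Lce1c), and with Lce6a at 0.05. Lce6a correlated with the members of the main run at 0.84 (Lce1c) to 0.99 (Lce1f).

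File names carry a lane field, L001 or L009, that the labels do not explain, and the size of the differences moved with it. In GW3965 against IMQ_Veh the members' log2 differences had a median of 1.74 (1.59 to 2.84) among L001 libraries, 2 against 1, and of 1.23 (0.99 to 1.98) among L009 libraries, 1 against 2. In troglitazone against IMQ_Veh the medians were 1.42 (1.24 to 2.54) in L001 and 0.41 (0.14 for Lce1a1 to 1.01 for Lce1m) in L009. In IMQ_Veh against UTX_Veh they were -0.54 (-3.82 to 0.19) in L001, 1 library against 2, and 0.07 (-3.00 to 0.84) in L009, 2 against 1. In that comparison Lce1m was lowest and Lce1f highest of the members in both lane fields. With so few libraries a lane field and single libraries cannot be told apart.

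The drugs side by side gave higher means with GW3965 at 20 mg/kg than with troglitazone at 150 mg/kg for all 10 genes, by log2 differences of 0.42 (Lce1c) to 0.50 (Lce1j), with SEs of 0.13 to 0.30. The median was 0.46, against 0.01 over all genes. It was 0.29 without IMQ_Troglitazone replicate 2 and 0.59 without its replicate 3, and it was 0.31 among L001 libraries, 2 against 2, and 0.84 among L009 libraries, 1 against 1. By edgeR's adjusted p, 0 of the 10 were past the threshold, where 1.86% of all genes were (1.08% higher and 0.782% lower with GW3965). At an unadjusted p under 0.05 there were 8, and the share of all genes at that level is not given here. DESeq2 had 1 member past the adjusted threshold, where 454 of 17130 genes were higher and 506 lower. By limma-voom it was 0, where 230 genes were higher and 156 lower. Libraries did not overlap for 8 of the 10, where 14.1% of genes had all GW3965 libraries higher, and overlapped for Lce1m and Lce6a. The members were chosen from these same libraries, and nothing is read from these counts. Since doses differ, the values stand side by side only.

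**Figure D3:**
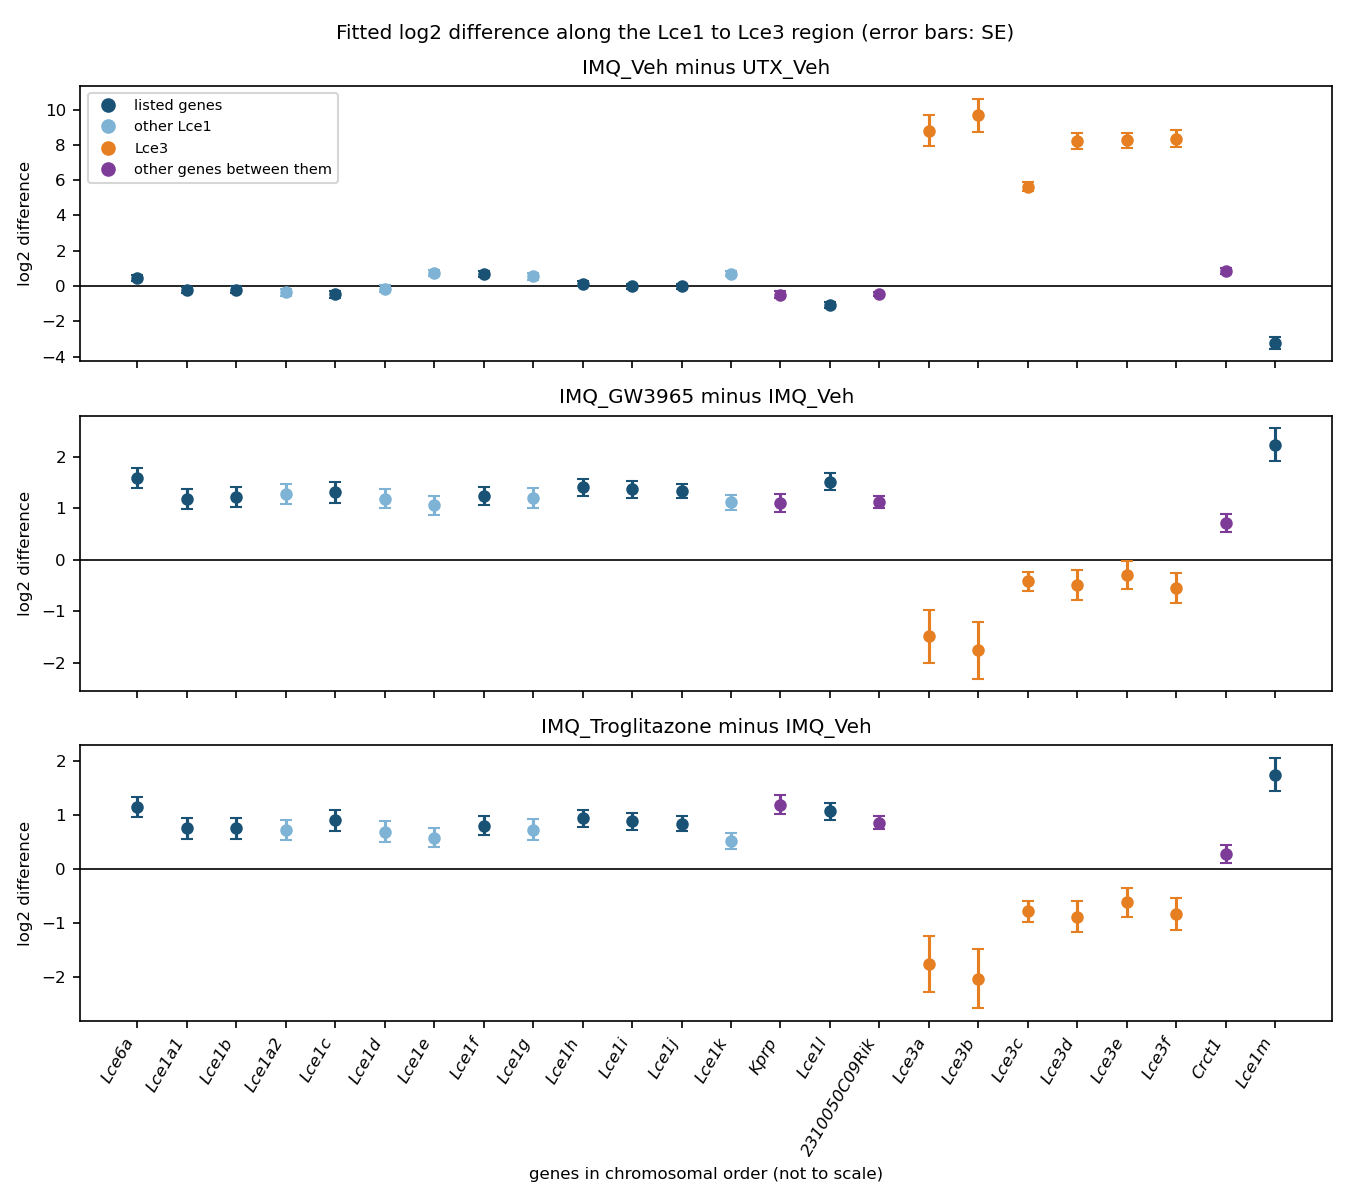
Fitted log2 difference with its SE (vertical axis) for the Lce1, Lce3 and neighbouring genes in chromosomal order (horizontal axis, not to scale), with 1 panel for IMQ_Veh minus UTX_Veh and 1 for each drug minus IMQ_Veh. Dark blue points are the 10 members, light blue the other Lce1 genes, orange the Lce3 genes and purple the genes between them. In IMQ_Veh against UTX_Veh, Lce1m lies at -3.23 beside the Lce3 genes at 5.64 to 9.69, and in the drug comparisons the Lce1 genes and Lce6a lie above 0 and the Lce3 genes below it.

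The make-up of the Lce1 pool differed between UTX_Veh and the 3 imiquimod groups. Lce1m held 12.4% to 13.9% of the summed TPM of the 14 Lce1 genes in UTX_Veh, 1.46% to 1.95% in IMQ_Veh, 2.55% to 4.12% with GW3965 and 2.78% to 3.89% with troglitazone. The drug groups thus stood above IMQ_Veh in each library and far under UTX_Veh. Lce1f held 4.66% ± 0.332 in UTX_Veh and 8.91% ± 0.337 in IMQ_Veh, and its share was 8.77% ± 0.345 with GW3965 and 8.99% ± 0.378 with troglitazone. The share of Lce1l was in between, at 7.44% ± 0.327 in UTX_Veh, 4.37% ± 0.649 in IMQ_Veh, 5.06% ± 0.376 with GW3965 and 5.18% ± 0.131 with troglitazone. Lce1a1 held 14.5% ± 0.276, 15.0% ± 0.633, 14.1% ± 0.189 and 14.5% ± 0.236 in the 4 groups. A share depends on all genes of the pool, and its parts are not independent.

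**Figure D4:**
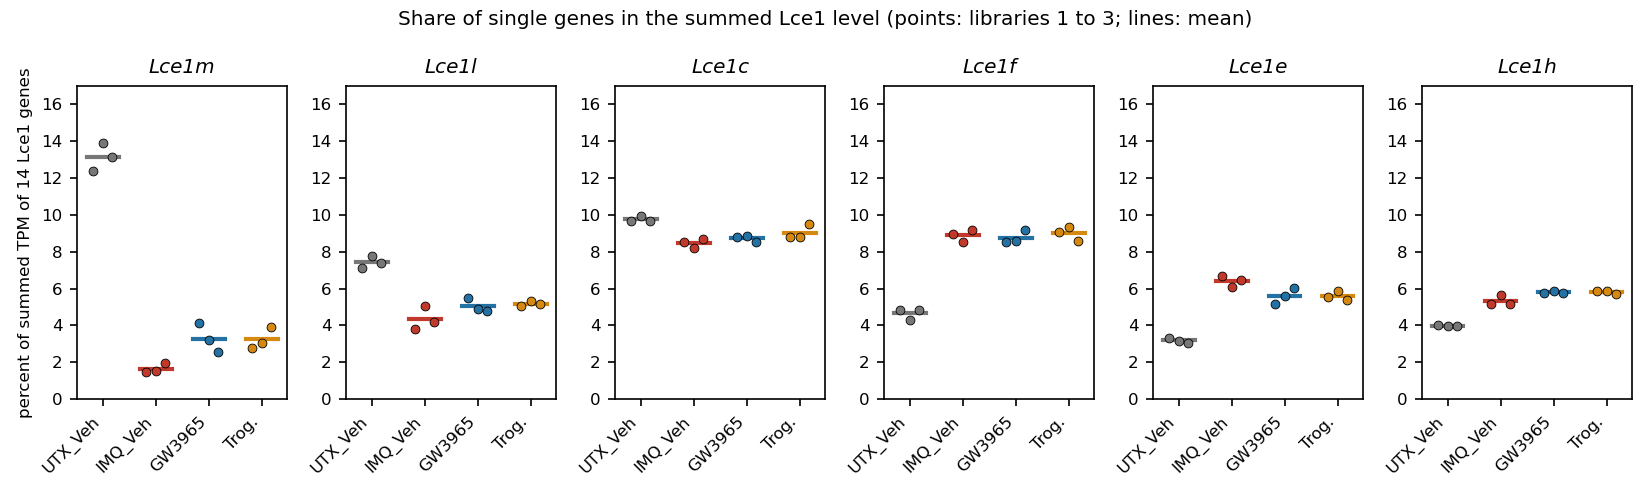
Share of Lce1m, Lce1l, Lce1c, Lce1f, Lce1e and Lce1h in the summed TPM of the 14 Lce1 genes, in percent (vertical axis from 0), for the 4 groups, with points for libraries and lines for means. Lce1m is at 12.4% to 13.9% in UTX_Veh and at 4.12% or less elsewhere, while Lce1f goes the other way, from 4.66% in UTX_Veh to between 8.77% and 8.99% in the imiquimod groups.

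The 5 Lce1 genes outside the list share reads with the members, so they are not independent of them. In IMQ_Veh against UTX_Veh, Lce1e (74.6 ± 5.69 to 125 ± 32.8 CPM, log2 0.75 ± 0.18, edgeR adjusted p = 0.00375), Lce1k (0.70 ± 0.15, edgeR adjusted p = 0.00151) and Lce1g (0.56 ± 0.19, edgeR adjusted p = 0.0254) rose, and Lce1a2 (-0.36 ± 0.19) and Lce1d (-0.14 ± 0.19) did not pass the test. The call of Lce1g was lost without UTX_Veh replicate 1 or 3 or IMQ_Veh replicate 1 or 3, and under upper-quartile scaling, at adjusted p up to 0.134. With GW3965 all 5 rose, by log2 1.06 (Lce1e) to 1.28 (Lce1a2), at edgeR adjusted p of 0.00469 to 0.0126, and Lce1e alone lost its call in 1 alternative, the fit of only 2 groups (0.0649). With troglitazone 4 of the 5 rose by 0.51 (Lce1k) to 0.73 (Lce1g), at edgeR adjusted p of 0.0387 to 0.0484, and Lce1e (0.58 ± 0.18) had an adjusted p of 0.0626. Each of these troglitazone calls was lost on leaving out any of 9 or 10 single libraries, IMQ_Veh replicate 1 and IMQ_Troglitazone replicate 3 among them, and adjusted p ranged from 0.00435 to 0.186 over the alternatives. Between the drugs 0 of 5 were past the edgeR threshold, with 5 at an unadjusted p under 0.05, and 1 was past it by DESeq2 and 1 by limma-voom.

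The Lce3 genes, which lie between Lce1l and Lce1m, took another course from the Lce1 members. Their UTX_Veh means were 0.146 ± 0.185 CPM (Lce3b) to 3.43 ± 0.503 CPM (Lce3c), and their IMQ_Veh means 76.6 ± 18.6 CPM (Lce3a) to 172 ± 42.5 CPM (Lce3c). All 6 rose, by log2 5.64 ± 0.24 (Lce3c, edgeR adjusted p = 1.69e-07) to 9.69 ± 0.94 (Lce3b, edgeR adjusted p = 8.27e-06). The size of the larger folds rests on UTX_Veh levels near 0. With GW3965, where all 10 members had higher means, the Lce3 log2 differences were -1.76 to -0.29 and 0 of 6 passed by edgeR, with 3 at an unadjusted p under 0.05, 0 past the threshold by DESeq2 and 1 by limma-voom. With troglitazone, Lce3b (-2.04 ± 0.55, edgeR adjusted p = 0.0423) and Lce3c (-0.79 ± 0.19, edgeR adjusted p = 0.0304) fell, neither in all alternatives, while all 6 were at an unadjusted p under 0.05 and 4 were past the adjusted threshold by DESeq2 and 4 by limma-voom. The difference between the Lce1 and Lce3 responses was not tested.

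Genes between the members were named for their position. Kprp, a proline-rich keratinocyte protein gene between Lce1k and Lce1l, fell in IMQ_Veh (-0.48 ± 0.18, edgeR adjusted p = 0.0327, and 0.00282 to 0.077 over the alternatives, lost without any single UTX_Veh library or without IMQ_Veh replicate 1 or 2) and rose with GW3965 (1.11 ± 0.18, edgeR adjusted p = 0.00918) and troglitazone (1.19, edgeR adjusted p = 0.00787). 2310050C09Rik, between Lce1l and the Lce3 genes, fell in IMQ_Veh (-0.44 ± 0.12, edgeR adjusted p = 0.0078) and rose with both drugs, by 1.13 and 0.86 (edgeR adjusted p = 0.00222 and 0.00676). Crct1, the gene next to Lce1m, rose in IMQ_Veh (0.84 ± 0.17, edgeR adjusted p = 0.00108) while Lce1m was at -3.23. With GW3965, Crct1 rose by 0.72 (edgeR adjusted p = 0.0302, and 0.0018 to 0.102 over the alternatives), and with troglitazone its value was 0.27 (edgeR adjusted p = 0.313).

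The other genes of envelope formation were counted by lists fixed with earlier results known. Of 24 tested genes for other envelope precursors, 16 rose and 4 fell in IMQ_Veh against UTX_Veh (median log2 2.27), 8 rose and 3 fell with GW3965 (median -0.02), and 7 rose and 6 fell with troglitazone (median 0.14), by edgeR's adjusted p. Flg2, a filaggrin-family gene, fell in IMQ_Veh and rose with both drugs, with log2 differences of -4.32 ± 0.40, 2.50 ± 0.37 and 2.81 (edgeR adjusted p = 6.16e-06, 0.00656 and 0.00632). Sprr2b, a small proline-rich precursor, rose in IMQ_Veh by 12.24 (from near 0) and fell by 2.99 with GW3965 (edgeR adjusted p = 0.0263) and by 2.31 with troglitazone (edgeR adjusted p = 0.0449). Among 19 tested crosslinking and processing enzymes, 19 rose in IMQ_Veh (median 1.40), and 3 rose and 3 fell with each drug (medians 0.05 and 0.04). The transglutaminase gene Tgm3 had 3.46 in IMQ_Veh, then -0.95 (edgeR adjusted p = 0.0362) and -1.04 (edgeR adjusted p = 0.0235).

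Of 20 barrier lipid enzymes, 14 rose and 5 fell in IMQ_Veh (median 0.74), 4 rose with GW3965 (0.14) and 3 with troglitazone (0.15). Elovl6, a fatty acid elongase gene, fell by 1.93 in IMQ_Veh and rose by 1.04 with GW3965 (edgeR adjusted p = 0.00665) and 0.74 with troglitazone (edgeR adjusted p = 0.0179). Of 34 differentiation regulators, 17 rose and 8 fell in IMQ_Veh (0.33), 1 rose and 5 fell with GW3965 (-0.07), and 2 rose and 4 fell with troglitazone (-0.05). Pparg, which encodes the troglitazone receptor, fell by 1.09 in IMQ_Veh, rose by 0.89 with GW3965 (edgeR adjusted p = 0.0187) and had 0.56 with troglitazone (edgeR adjusted p = 0.0592). Of 13 epidermal keratins, 8 rose and 3 fell in IMQ_Veh (0.82), 3 rose and 2 fell with GW3965 (0.06), and 2 rose and 3 fell with troglitazone (-0.19). Of 17 genes of calcium sensing and Notch signalling, 10 rose and 4 fell in IMQ_Veh (0.52), 0 rose and 2 fell with GW3965 (-0.18), and 1 rose and 3 fell with troglitazone (0.02). Between the drugs, 0 genes of these lists passed by edgeR except Notch1, Notch2 and Notch3, all lower with GW3965 (Notch1 -0.60, edgeR adjusted p = 0.0235), and each of those 3 calls was ended by leaving out a single library. Of the genes outside the members that the naming rule took, 30 were called with GW3965, and 20 of these calls were ended by leaving out a single library (19 without IMQ_Veh replicate 1, 20 without IMQ_GW3965 replicate 1) and 22 in a fit of only the 2 groups compared. With troglitazone 31 were called, and 27 ended in this way (27 without IMQ_Veh replicate 1, 25 without IMQ_Troglitazone replicate 3), and all 31 ended in the fit of only the 2 groups. Flg2, Kprp and 2310050C09Rik kept their drug calls on leaving out any single library. In the fits of only the 2 groups, Flg2 (edgeR adjusted p = 0.0502 with GW3965, 0.0934 with troglitazone) and Kprp (0.0576 and 0.0968) lost both, and 2310050C09Rik lost that with troglitazone (0.0934).

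Marker sums of several cell types differed between the groups as well. Suprabasal keratinocyte markers (6 genes, Krt10 among them) summed to 14153 to 16869 CPM in UTX_Veh, 30378 to 44886 in IMQ_Veh, 40292 to 55586 with GW3965 and 39087 to 47645 with troglitazone, and 4 rose and 1 fell in IMQ_Veh, 1 rose with GW3965 and 2 rose with troglitazone. Sebaceous gland markers (9 genes) summed to 1035 to 1164, 745 to 1598, 1915 to 2210 and 1498 to 1923 CPM, and 1 rose and 4 fell in IMQ_Veh, 6 rose with GW3965 and 3 with troglitazone. Skeletal muscle markers (13 genes) summed to 13931 to 15909, 1830 to 7089, 7917 to 11214 and 5641 to 8620 CPM. All 13 fell in IMQ_Veh, 3 rose with GW3965 and 0 with troglitazone (6 at an unadjusted p under 0.05). Neutrophil markers (10 genes, 9 tested) summed to 71.4 to 88.8, 5780 to 10121, 342 to 2077 and 448 to 2005 CPM, and 8 rose and 1 fell in IMQ_Veh, 1 rose and 3 fell with GW3965, and 3 fell with troglitazone. No marker was at 0 throughout a group except Fpr1 (neutrophil) and Matn1 (cartilage) in UTX_Veh. The part of these cell types in the values of the Lce genes was not tested.

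Among 13705 genes ranked by the correlation of their log2 CPM with the mean standardised level of the 10 members over 12 libraries, the most alike were Lce1d (r = 0.990), Lce1a2 (0.984), Spsb3 (0.981), Pex13 (0.970), Ubl3 (0.969), Gramd1c (0.969), Nt5c3 (0.964), Oas1f (0.951), Asb2 (0.950) and Anxa9 (0.943). Lce1d and Lce1a2 share reads with members. Spsb3, the closest gene outside the cluster, had 60.2 ± 2.56 CPM in UTX_Veh, 56.8 ± 5.18 in IMQ_Veh, 82.1 ± 4.25 with GW3965 and 70.4 ± 8.44 with troglitazone. Ubl3, which encodes a ubiquitin-like protein, had 112 ± 5.26, 108 ± 22.0, 174 ± 5.97 and 148 ± 27.0 CPM. After the group means were removed, r was 0.54 (Oas1f) to 1.0 (Lce1a2), so for most of these genes the likeness also held between libraries of a group. The points share library, depth and scaling, and no test was made.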

How the data were processed

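Bulk mRNA was measured in 12 ear skin libraries. Per the labels' protocols, total RNA (mirVana kit, DNase step) was turned into libraries by a TruSeq stranded mRNA kit. Per the submitters' processing notes, the tools were STAR 2.7.3a and RSEM 1.3.3 on GRCm38 (mm10), with FastQC and Trim Galore. For the annotation release and strand setting, a statement is not given in the sources used here. Each library has 1 gene table from the authors, deposited with expected counts (estimated reads per gene, not scaled for depth) and TPM values (scaled by length to a common total). The effective length in bases in the deposited tables was used for description only.

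Symbols and positions came from GENCODE M21, which matched 52083 of 55416 identifiers and left 3333 unnamed. Promoters came from RefSeq on GRCm38.p6. Expected counts were rounded and fitted in R 4.3.3 with edgeR 4.0.16 (filterByExpr by group, 17130 genes, TMM, glmQLFit and glmQLFTest, all 12 libraries, 8 residual degrees of freedom). A gene counts as changed (rose or fell) at a Benjamini-Hochberg adjusted p under 0.05 over all genes tested. An SE is the size of the log2 difference over the square root of its F statistic. The fit was also run on simulated data with a single dispersion for all genes and no deviating library. That run cannot show how the fit performs on libraries as uneven as these. No pair of libraries in a group agreed within sampling noise (lowest chi-square per degree of freedom 7.79).

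The members and all lists were chosen with earlier results of these data known. The naming rule took all members, the other Lce1 and Lce3 genes, up to 4 changed genes per list and comparison with the largest changes, and the 10 genes most alike. The neighbours Kprp, 2310050C09Rik and Crct1 were named for position. Alternatives were other filters, scaling by RLE or the upper quartile, limma-voom (limma 3.58.1), DESeq2 1.42.0, fits of only 2 groups, the replicate number and the lane field as terms, unrounded counts, leaving out libraries or the feature ENSMUSG00000119584, and summing the Lce1 genes. Fits within a lane field were added after the data were seen.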

Additional observations from a re-analysis of the deposited data

How the results depend on the processing

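Over 28 settings, the members' log2 differences gave 1084 values: 998 stayed within the SE of the main value, 86 moved beyond it and 0 reversed a called direction. Outside the fits within a lane field, Lce1m ranged from -3.59 to -3.06 in IMQ_Veh against UTX_Veh, from 2.01 to 2.76 with GW3965 and from 1.42 to 2.09 with troglitazone, and in IMQ_Veh against UTX_Veh the values of Lce1h (-0.02 to 0.23), Lce1i (-0.20 to 0.08) and Lce1j (-0.12 to 0.07), which were not called, crossed 0. Of 3114 values for other genes, 2602 stayed the same, 448 lost a call and 31 gained one. In fits within a lane field 32 moved beyond the SE, and 1 value reversed over all settings. The reversal was in Lce1d, which in IMQ_Veh against UTX_Veh was 0.00 without IMQ_Veh replicate 2 and -0.31 without IMQ_Veh replicate 3 and IMQ_GW3965 replicate 3 together, the ends of its range on leaving out libraries. Members past the threshold in the higher direction in IMQ_Veh against UTX_Veh were 1 in place of 2 (Lce6a was lost) with a mean of at least 1 CPM, RLE or upper-quartile scaling, limma-voom, only the 2 groups compared, the lane covariate, without 2 libraries together (IMQ_Veh replicate 3 and IMQ_GW3965 replicate 3) and without ENSMUSG00000119584, and 1 to 2 leaving out 1 library. Over all genes, those higher were, in the same order, 5165 of 14982, 5493, 4804 and 5576 of 17130, 5150 of 16720, 5495 of 17130, 5485 of 17492 and 5380 of 17141. Leaving out 1 library they were 4827 (without IMQ_Veh replicate 1) to 5834 (without IMQ_Veh replicate 3). The main fit had 5646 of 17130. With GW3965, members past the threshold were 10 leaving out any library and 9 with only 2 groups; genes changed, 1129, were 2222 by DESeq2, 102 with only 2 groups, 549 with the lane covariate, 3041 without the 2 libraries and 105 (without IMQ_GW3965 replicate 1) to 3645 (without IMQ_Veh replicate 3) leaving out 1. With troglitazone, members were 0 with only 2 groups, 8 with the lane covariate and 4 to 10 leaving out 1 library; genes changed, 1600, were 2590 by DESeq2, 0 with only 2 groups, 1009 with the lane covariate, 4166 without the 2 libraries and 162 (without IMQ_Veh replicate 1) to 4460 (without IMQ_Veh replicate 3). Between the drugs, 1 member in place of 0 was past the threshold by DESeq2; genes changed, 319, were 140 with no filter, 960 by DESeq2, 9 with only 2 groups, 0 without the 2 libraries and 0 to 692 leaving out 1. Same-numbered libraries showed little shared deviation (18 pairs, r from -0.21 to 0.28, 4 over 0.1). Groups of 3 libraries cannot settle whether the numbers pair them. With the replicate block, genes changed were 10722, 1426, 1715 and 131 in the 4 comparisons and members higher 2, 10, 10 and 0; with the block and the lane covariate, the troglitazone count was 991 and that between drugs 26. The cause of these shifts was not tested. Since the members were chosen from these same libraries, nothing is read from their counts past the threshold or from their called directions. The lowest level of any member in any library was 27.8 CPM (Lce1m, IMQ_Veh replicate 2).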

Other observations

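Lce1m departed from the other members, and the genes most like it alone were ranked after its values had been seen. Over the 12 libraries its log2 CPM correlated most with those of Echdc3 (r = 0.988), Tprgl (0.986), Agpat4 (0.985), Cnst (0.981), Art3 (0.980), Skint4 (0.979), Pink1 (0.978), Mafa (0.978), Suox (0.978) and Slc50a1 (0.975). None of these is an Lce gene or one of the 10 genes most like all members. Pink1, a kinase of mitochondrial quality control, had 308 ± 12.2 CPM in UTX_Veh, 84.2 ± 20.9 in IMQ_Veh, 177 ± 32.9 with GW3965 and 164 ± 38.9 with troglitazone. Skint4, of a family of immunoglobulin-domain genes expressed in skin and thymus, had 34.2 ± 1.15, 9.02 ± 1.58, 20.2 ± 1.24 and 17.8 ± 7.33 CPM. Agpat4, an acyltransferase of phospholipid synthesis, had 76.3 ± 6.49, 26.8 ± 4.55, 55.9 ± 4.04 and 48.0 ± 8.44 CPM. The libraries share depth and scaling, the genes were picked from these values, and no test was made.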
